A study of Mus musculus with 9 samples.

Results

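The AP-1 family of transcription factors was examined in CD4+ T cells through 10 genes chosen by name, namely *Fos*, *Fosb*, *Fosl1*, *Fosl2*, *Jun*, *Junb*, *Jund*, *Batf*, *Batf3* and *Atf3*. All 10 were listed once among the 55487 genes of the table, and all 10 passed the filter of at least 1 TPM in at least 3 libraries, as did 15536 genes in total. The cells were purified by negative selection from the spleens of wild type C57BL/6 mice, which the study's methods give as female and 6 to 7 weeks old, and were cultured in RPMI-1640 with fetal calf serum, penicillin and streptomycin. There were 3 groups of 3 libraries. The medium group received nothing further. The stimulated group received an anti-CD3 Ab at 3 µg/ml, which engages the T cell receptor complex, plus an anti-CD28 Ab at 2 µg/ml, which engages a costimulatory receptor, for 24 h. TRAIL-treated activated T cells received the same Abs for 24 h together with 10 µg/ml of TRAIL, a death-receptor ligand related to tumor necrosis factor. The culture time of the medium group, and whether libraries of a group came from separate mice, are not given in the sources used here, so p-values measure the spread between these libraries, which may be technical. Cells of TRAIL receptor knockout mice were not analysed here.

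AP-1 is a dimer of basic leucine zipper proteins that binds a short palindromic DNA element. JUN proteins pair with themselves or with FOS proteins, whereas FOS proteins need a JUN partner. BATF proteins also pair with JUN proteins, and in T cells these dimers bind DNA together with IRF4 or IRF8. TCR and costimulatory signals reach AP-1 through the ERK, JNK and p38 kinases, which act on both the transcription and the phosphorylation of its subunits, and AP-1 then binds together with NFAT at cytokine genes such as *Il2*. *Fos*, *Fosb*, *Jun* and *Junb* are classic immediate early genes, transcribed within minutes of a stimulus and usually for a short time, and *Fos* and *Jun* also respond to stress and to the handling of cells.

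Promoters were read from RefSeq on GRCm38.p6, the build family of the table, to show the DNA upstream of members whose levels followed one order of the groups and of one that followed another. Of the 10 members 9 had an entry, and for 5 of these the RefSeq start lay within 100 bases of the gene's start in the table. *Fos*, *Fosb*, *Jun* and *Junb* had their lowest means in stimulated cells, and *Batf* its highest, although against medium *Jun* and *Junb* were not called. Each line gives up to 250 bases before the RefSeq start, 5′ to 3′ on the gene's strand, without bases that lie inside the gene in the table. Capitals mark TGACG, the core of the cyclic AMP response element, or TGACNTCA, an AP-1-like element, on either strand.
*Fos*, chr12:85473640-85473889, plus strand: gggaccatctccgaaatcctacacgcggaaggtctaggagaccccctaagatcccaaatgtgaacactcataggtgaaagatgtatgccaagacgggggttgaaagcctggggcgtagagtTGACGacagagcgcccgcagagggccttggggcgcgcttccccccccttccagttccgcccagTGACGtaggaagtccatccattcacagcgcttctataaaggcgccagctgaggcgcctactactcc
*Fosb*, chr7:19310052-19310295, minus strand: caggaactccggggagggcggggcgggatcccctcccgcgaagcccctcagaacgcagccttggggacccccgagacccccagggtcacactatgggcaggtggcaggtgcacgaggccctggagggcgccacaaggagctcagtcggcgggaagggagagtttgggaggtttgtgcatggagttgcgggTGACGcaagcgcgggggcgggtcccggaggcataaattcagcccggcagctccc
*Jun*, chr4:95052223-95052472, minus strand: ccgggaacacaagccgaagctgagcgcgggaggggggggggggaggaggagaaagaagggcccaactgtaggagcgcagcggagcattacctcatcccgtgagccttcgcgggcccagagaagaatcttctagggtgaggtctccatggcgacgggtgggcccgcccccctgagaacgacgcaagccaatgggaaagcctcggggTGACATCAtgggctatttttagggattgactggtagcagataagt
*Junb*, chr8:84978749-84978998, minus strand: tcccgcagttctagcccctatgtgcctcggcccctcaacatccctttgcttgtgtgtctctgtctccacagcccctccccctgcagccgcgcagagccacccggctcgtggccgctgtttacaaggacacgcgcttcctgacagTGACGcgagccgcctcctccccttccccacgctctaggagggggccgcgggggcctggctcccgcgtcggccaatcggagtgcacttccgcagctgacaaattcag
*Batf*, chr12:85686470-85686668, plus strand: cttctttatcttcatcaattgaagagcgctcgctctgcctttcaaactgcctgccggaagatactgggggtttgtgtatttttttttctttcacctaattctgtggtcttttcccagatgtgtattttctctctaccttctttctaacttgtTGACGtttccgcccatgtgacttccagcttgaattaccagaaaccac
TGACG stood in 4 of the 5 promoters shown and in 5 of the 9 with an entry, compared with 17.8% of all 32851 promoters of this length. That set was not matched to the members for expression or base content. It lay 66 to 62 bases before the start in *Fos*, with a second copy at 129 to 125, and 60 to 56 bases before it in *Fosb*. *Junb* held it at 106 to 102 bases, and *Batf*, highest in stimulated cells, at 98 to 94 bases. *Jun* alone of the 9 held TGACNTCA, at 45 to 38 bases, a form found in 7.49% of promoters. The MEF2 consensus was matched in 2 of the 9 windows, in *Jun* at 33 to 24 bases and in *Atf3* at 22 to 13 bases, and in 2.92% of all promoters. The RefSeq start of *Atf3* lies 34706 bases from the gene's start in the table, so its window is not at that start. TGANTCA, the AP-1 element itself, was in none of the 9 windows and in 6.75% of all promoters. The CArG box, the site of serum response factor, was also in none of these windows and in 1.47% of all promoters. Sites more than 250 bases before the RefSeq start were not searched, so none is excluded there. TGACG and TGACNTCA overlap where the middle letter is G.

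The values are TPM, which are corrected for gene length and share one total in every library, so levels can be compared between genes but read depth is unknown. Between libraries of one group the correlation of log2(TPM + 1) across genes, which are not independent replicates, was 0.983 to 0.993, and 0 pairs of libraries held identical values. The 10 T cell markers examined, *Cd4* and *Cd3e* among them, were present in all 3 groups, with sums of 4106 to 4523 TPM in medium, 3965 to 4202 TPM after stimulation and 4064 to 4523 TPM with TRAIL. Their sum was level but its members went both ways. After stimulation *Cd3g* was called lower (means of 615, 299 and 595 TPM for medium, Abs alone and Abs with TRAIL) and *Cd2* higher (392, 839 and 446 TPM), the other 8 were not called, and *Cd4* had 384, 220 and 384 TPM. Markers of other spleen cells were not absent, and they differed between the groups. The sum of 8 B cell markers was 2133 to 2193 TPM in medium, 182 to 198 TPM in stimulated and 879 to 978 TPM in TRAIL-treated libraries. For 12 myeloid markers it was 1932 to 2193, 64.9 to 79.4 and 1405 to 1629 TPM, and for 7 erythroid markers 2137 to 2585, 24.8 to 39.6 and 619 to 669 TPM. Genes under 1 TPM in every stimulated library included *Adgre1* of the myeloid list and *Slc4a1* and *Alas2* of the erythroid list, and none of these lists had such a gene in the other groups. Of 6 markers of CD8+ T and NK cells, whose sum was 247 to 294, 122 to 129 and 94.4 to 102 TPM, the 4 NK genes had their lowest means after Abs alone, whereas *Cd8a* (39.0, 45.0 and 14.1 TPM) and *Cd8b1* (74.8, 55.8 and 34.4 TPM) were lowest with TRAIL. These are bulk RNA samples, in which fewer cells of a type and less RNA per cell cannot be told apart.

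The first question was how the family differed between cells in medium and stimulated cells, and the second how it differed when TRAIL was added. The groups were compared with limma on log2(TPM + 1), and a gene was called at an adjusted p under 0.05 with a log2 fold change of 1 or more in either direction. Of the 10 members 7 were called for stimulated cells against medium (31.9% of all genes tested), 8 when TRAIL-treated cells were set against stimulated ones (30.9%) and 5 for TRAIL-treated cells against medium (4.62%). Stimulated cells showed 5 members higher than medium (*Fosl1*, *Fosl2*, *Batf*, *Batf3* and *Atf3*) and 2 lower (*Fos* and *Fosb*), where 12.4% of all genes tested were called higher and 19.5% lower. With TRAIL, 5 members were called higher than after Abs alone (*Fos*, *Fosb*, *Fosl2*, *Jun* and *Junb*) and 3 lower (*Fosl1*, *Batf* and *Batf3*), against 16.6% and 14.3% of all genes. Compared with medium, TRAIL-treated cells showed 5 members higher (*Fosl1*, *Fosl2*, *Jun*, *Junb* and *Atf3*) and 0 lower, where 2.49% and 2.13% of all genes were called. At an adjusted p under 0.05 without a fold limit, 9 members were higher and 0 lower in that last comparison, where 8.03% and 24.6% of all genes were. Of these 9, *Fos* (adjusted p = 0.0982) and *Batf* (adjusted p = 0.0744) did not pass in the limma fit without the filter on low values. Without the fold limit 6 members were higher and 4 lower after stimulation than in medium, and 40% of all genes were lower. Counted by libraries alone, 6 members lay wholly above and 4 wholly below medium after stimulation, as did 29.9% and 42.6% of all genes. With TRAIL 6 lay above and 3 below the stimulated libraries (35.5% and 34.9% of all genes), and 9 lay above and 0 below medium (12.4% and 38.2%). The median log2 fold change of the 10 members was 1.02, 0.87 and 1.01 in the 3 comparisons, beside -0.15, 0.01 and -0.18 over all genes. The comparisons share groups, so their counts are not independent.

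**Figure D1:**
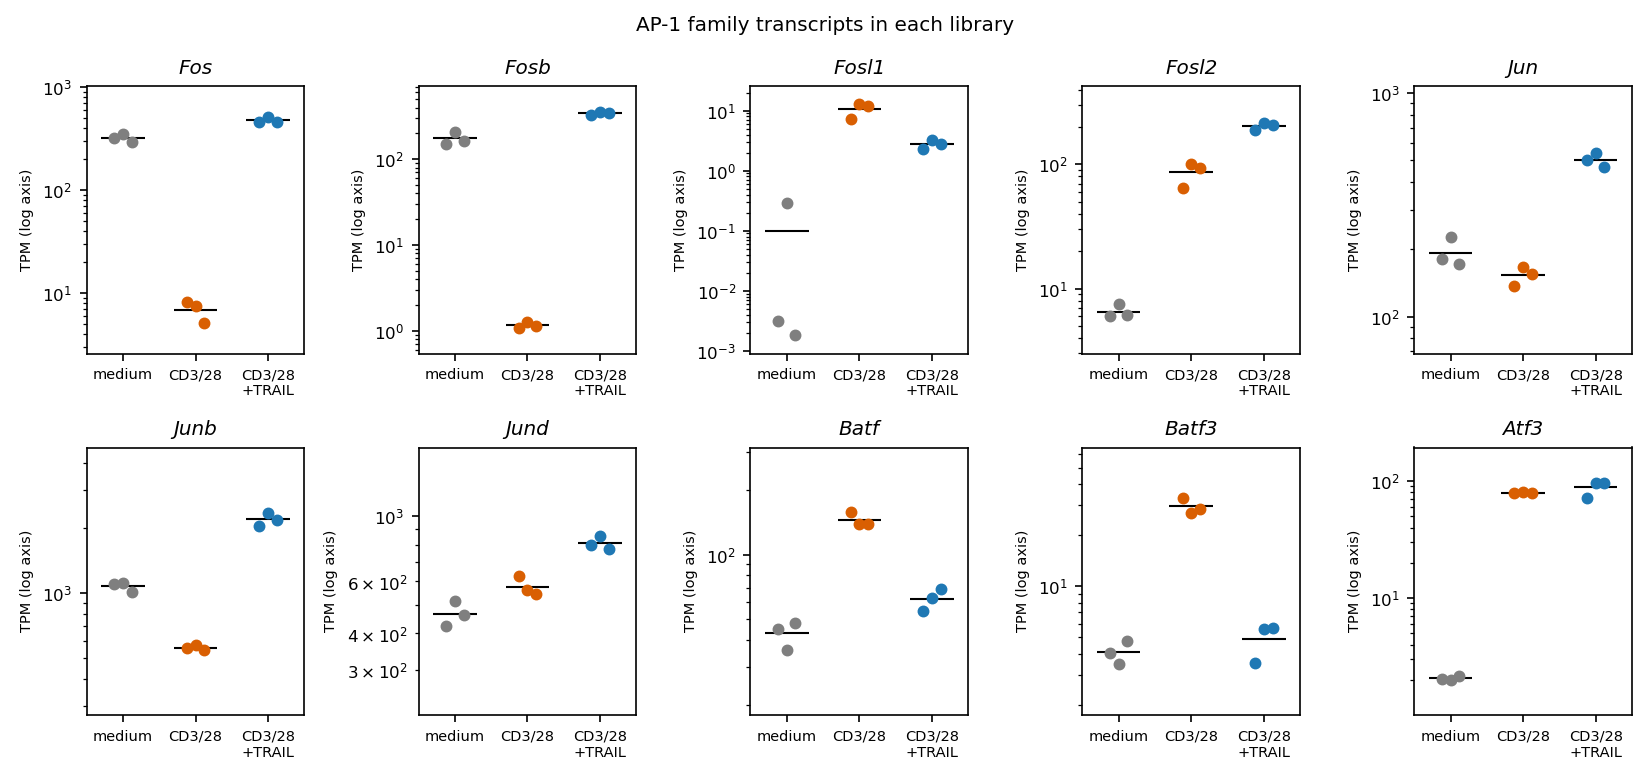
TPM of each AP-1 gene (vertical log axis, in TPM, with its own range in each panel) in the 9 libraries, as points for medium (grey), anti-CD3/CD28 (orange) and anti-CD3/CD28 with TRAIL (blue), with the mean of 3 as a line. *Fos*, *Fosb*, *Jun* and *Junb* are lowest after Abs alone, *Batf* and *Batf3* are highest there, and *Fosl2* and *Jund* step up from medium to Abs to Abs with TRAIL.

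The FOS subfamily showed the widest swings. *Fos* (ENSMUSG00000021250, chromosome 12 of GRCm38, 85473890 to 85477273, plus strand), the founding member, had 319, 354 and 292 TPM in medium. After 24 h of stimulation it stood at 8.19, 7.50 and 5.22 TPM, and with TRAIL at 460.0, 516 and 458 TPM. The 3 groups did not overlap, the stimulated libraries being far below the others and the TRAIL-treated ones above medium. The mean was 46.2-fold lower in stimulated cells than in medium (log2 fold change -5.36, standard error 0.15, limma adjusted p = 1.02e-09) and 68.6-fold higher with TRAIL than without it (5.93, limma adjusted p = 7.75e-10). Against medium the difference with TRAIL was 0.57 (limma adjusted p = 0.0144), under the fold limit. Its adjusted p in limma was 0.0982 without the filter on low values, 0.0591 without medium replicate 3 and 0.0568 without TRAIL-treated replicate 2.

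*Fosb* (ENSMUSG00000003545, chromosome 7, 19302696 to 19310051, minus strand) encodes a close relative of FOS that is made in a full-length and a shortened form, which a gene-level value does not separate. It had 152, 209 and 164 TPM in medium and 1.09, 1.25 and 1.15 TPM after stimulation, which left it near the filter value. In TRAIL-treated libraries it reached 329, 356 and 342 TPM. Again the groups did not overlap. Its mean was 150.2-fold lower after stimulation (log2 fold change -6.33, limma adjusted p = 1.85e-10) and 294-fold higher with TRAIL than with Abs alone (7.31, standard error 0.12, limma adjusted p = 9.22e-11). Over the alternative settings these log2 values ran from -7.10 to -4.85 and from 5.82 to 8.08, so the size of the folds is uncertain. The excess over medium with TRAIL was 0.98 (95% confidence interval 0.71 to 1.25, limma adjusted p = 0.00034), just under the fold limit, and it passed that limit under median-of-ratios scaling (1.17), without medium replicate 2 (1.12) and without TRAIL-treated replicate 1 (1.01).

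*Fosl2* and *Fosl1* encode FRA-2 and FRA-1, which lack the strong transactivation domain of FOS. *Fosl2* (ENSMUSG00000029135, chromosome 5, 32135801 to 32157842, plus strand) was low in medium, at 5.99, 7.44 and 6.14 TPM. It measured 64.6, 101 and 94.2 TPM after stimulation and 189.6, 214 and 206 TPM with TRAIL. The order of the 3 groups was thus medium, stimulated, TRAIL-treated, without overlap. It was called higher in all 3 comparisons, by 3.52 for stimulated against medium (limma adjusted p = 2.67e-08), by 1.25 with TRAIL against Abs alone (limma adjusted p = 6.01e-05) and by 4.77 for TRAIL-treated cells against medium (limma adjusted p = 8.31e-08).

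*Fosl1* (ENSMUSG00000024912, chromosome 19, 5447547 to 5455946, plus strand) was near 0 in medium, at 0.00312, 0.292 and 0.00180 TPM, so no fold of the means is given. Stimulated libraries had 7.33, 12.9 and 11.8 TPM and TRAIL-treated libraries 2.26, 3.21 and 2.81 TPM. It was therefore highest after Abs alone, and the 3 groups did not overlap. It fell by 1.61 with TRAIL against Abs alone (limma adjusted p = 5.68e-05) and remained 1.78 above medium (limma adjusted p = 0.000234). With a pseudocount of 5 TPM these values were -0.997 and 0.60, both under the fold limit, and with 0.1 TPM they were -1.89 and 4.14. For stimulated cells against medium the value was 3.38 (limma adjusted p = 2.15e-07), and 1.60 to 6.03 over the alternatives. *Fosl1* overlaps *Ccdc85b* on the opposite strand, and reads of the shared part cannot be assigned, because whether counting used strand is not given in the sources used here.

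The JUN subfamily had the highest levels. *Junb* (ENSMUSG00000052837, chromosome 8, 84976910 to 84978718, minus strand), whose product is needed with BATF in several helper T cell programs, measured 1097, 1108 and 1003 TPM in medium, 554, 574 and 543 TPM after stimulation and 2043, 2350.1 and 2182 TPM with TRAIL. No library of one group lay within the range of another. The mean with TRAIL was 3.94-fold that with Abs alone (log2 fold change 1.97, standard error 0.09, limma adjusted p = 3.56e-08) and 2.05-fold that in medium (1.03, limma adjusted p = 4.03e-05). The second value lies close to the fold limit, and it was 0.76 under quantile normalization, 0.99 without medium replicate 3 and 0.98 without TRAIL-treated replicate 2. For stimulated cells against medium *Junb* was at -0.94 (limma adjusted p = 7.46e-06), under the fold limit, and at -1.22 under quantile normalization.

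*Jun* (ENSMUSG00000052684, chromosome 4, 95049034 to 95052222, minus strand), the JNK substrate that gave the subfamily its name, stood at 180.3, 226 and 172 TPM in medium, 137, 167 and 155 TPM after stimulation and 503, 536 and 467 TPM with TRAIL. It rose with TRAIL by 1.71 against Abs alone (standard error 0.12, limma adjusted p = 8.53e-07) and by 1.39 against medium (limma adjusted p = 4.37e-05), a difference far above the spread of either group. Stimulated and medium libraries were separated by a narrow gap. The difference there was -0.33 (95% confidence interval -0.60 to -0.05, limma adjusted p = 0.0383), and the adjusted p ranged from 0.00323 to 0.156 over the alternatives.

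*Jund* (ENSMUSG00000071076, chromosome 8, 70698949 to 70700616, plus strand) encodes the JUN protein that is usually made constitutively. Its values were 424, 517 and 461 TPM in medium, 624, 561 and 544 TPM after stimulation and 796, 852 and 773 TPM with TRAIL. The groups did not overlap, but *Jund* was the steadiest gene of the family and was called in 0 of the 3 comparisons. Its log2 differences were 0.30 for stimulated against medium (limma adjusted p = 0.0223), 0.49 with TRAIL against Abs alone (limma adjusted p = 0.00174) and 0.79 for TRAIL-treated cells against medium (limma adjusted p = 0.000456). The first became 0.10 under quantile normalization, with an adjusted p of 0.439. *Jun* and *Jund* each overlap an antisense gene, *Junos* and *Gm11175*, which may share reads with them.

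*Batf* and *Batf3* encode small factors without a transactivation domain. *Batf* (ENSMUSG00000034266, chromosome 12, 85686669 to 85709087, plus strand), which acts with IRF4 in activated T cells, measured 44.9, 36.0 and 48.2 TPM in medium, 157, 139 and 138 TPM after stimulation and 54.9, 62.9 and 69.3 TPM with TRAIL. Stimulated libraries were the highest, and TRAIL-treated ones lay a little above medium without overlap. *Batf* rose by 1.73 with stimulation (limma adjusted p = 1.03e-06) and fell by 1.20 with TRAIL against Abs alone (standard error 0.13, limma adjusted p = 1.63e-05). The fall was -0.99 under quantile normalization, just under the fold limit. Against medium, TRAIL-treated cells differed by 0.53 (limma adjusted p = 0.0124), which was not called.

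*Batf3* (ENSMUSG00000026630, chromosome 1, 191097847 to 191108945, plus strand) is best known for its role in cross-presenting dendritic cells and is also induced in T cells. It had 4.01, 3.47 and 4.73 TPM in medium, 33.0, 27.2 and 28.7 TPM after stimulation and 3.50, 5.58 and 5.63 TPM with TRAIL. It rose by 2.60 with stimulation (limma adjusted p = 4.01e-07) and fell by 2.39 with TRAIL against Abs alone (limma adjusted p = 7.84e-07). TRAIL-treated and medium libraries overlapped, and their difference of 0.20 had a 95% confidence interval of -0.18 to 0.59 (limma adjusted p = 0.389). *Batf3* was the one member without a difference between these groups at an adjusted p under 0.05. The sum of 6 dendritic cell markers was 54.3 to 59.1 TPM in medium, 9.67 to 13.3 TPM in stimulated and 33.2 to 35.5 TPM in TRAIL-treated libraries. Of these 6 markers 5 were called lower after stimulation, and *Zbtb46*, at 2.44, 5.86 and 1.20 TPM in the same order, was highest there, as *Batf3* was. With TRAIL against Abs alone 3 of the 6 were called higher, *Siglech* most (2.80), and 1, *Zbtb46*, lower. The part of dendritic cells in the values of *Batf3* was not tested.

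*Atf3* (ENSMUSG00000026628, chromosome 1, 191170296 to 191218039, minus strand) encodes a stress-inducible factor that can act as a repressor. It was at 2.04, 2.00 and 2.17 TPM in medium and at 78.4, 80.4 and 78.4 TPM after stimulation. The TRAIL-treated libraries had 72.4, 96.9 and 96.6 TPM, so they lay on both sides of the stimulated ones. *Atf3* rose by 4.71 with stimulation (limma adjusted p = 7.36e-10) and by 4.86 against medium with TRAIL (limma adjusted p = 2.47e-08). Between TRAIL-treated and stimulated cells the difference was 0.15 (95% confidence interval -0.12 to 0.42, limma adjusted p = 0.293). It was 0.29 with an adjusted p of 0.03 without TRAIL-treated replicate 1, still under the fold limit.

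**Figure D2:**
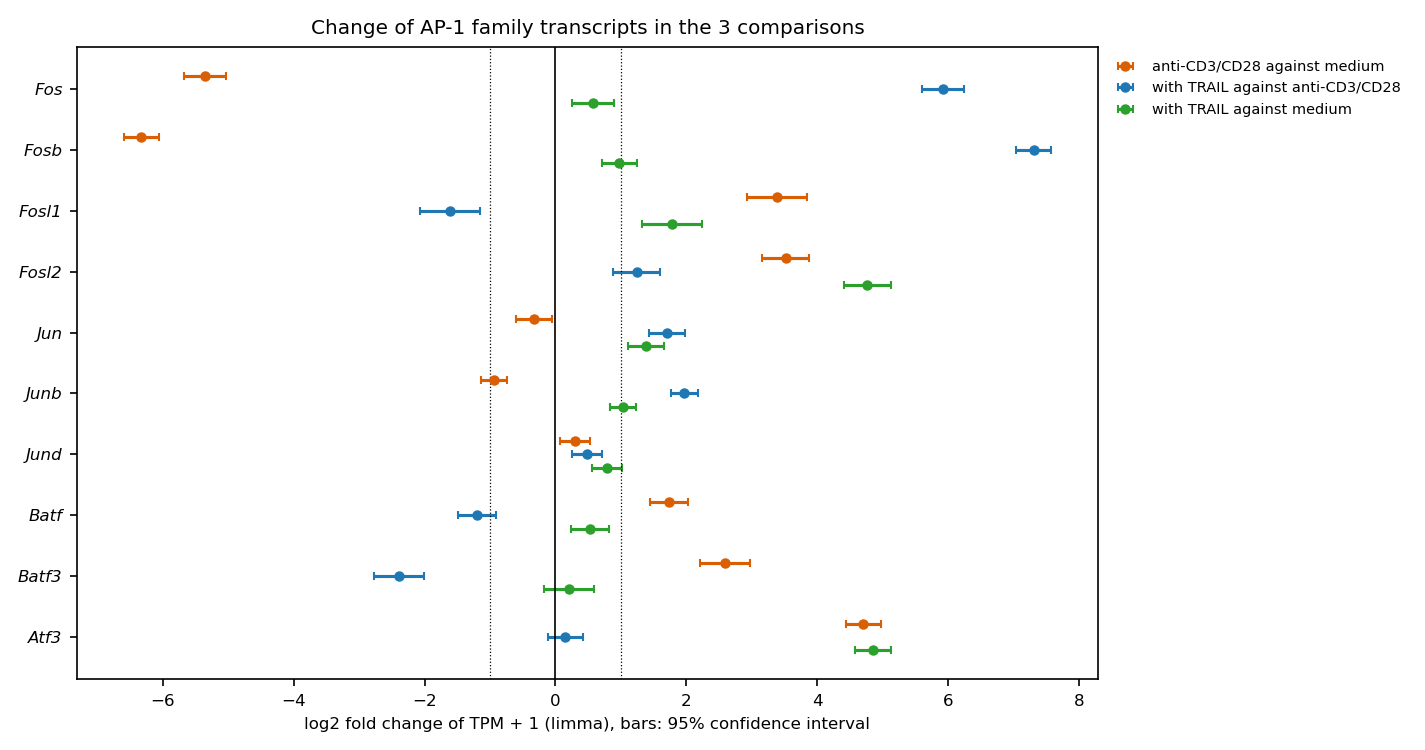
Log2 fold change of TPM + 1 from limma (horizontal axis) for each AP-1 gene (rows) in the 3 comparisons (orange, stimulated against medium; blue, TRAIL-treated against stimulated; green, TRAIL-treated against medium), with bars for the 95% confidence interval, a solid line at 0 and dotted lines at the fold limit of 1 in each direction. *Fos* and *Fosb* lie below -5 for Abs against medium and above 5 for TRAIL against Abs alone, *Batf* and *Batf3* lie on the opposite sides, and all 10 points for TRAIL-treated cells against medium lie right of 0.

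The makeup of each subfamily followed from these levels, and it is described here without a test. Of the summed TPM of the 4 FOS genes, *Fos* and *Fosb* together made up 98.7% ± 0.0507 (SD, n = 3) in the medium group, 8.08% ± 2.99 (SD, n = 3) in the stimulated group and 79.9% ± 0.595 (SD, n = 3) with TRAIL. *Fosl2* accounted for 1.30%, 81.9% and 19.8% in the same order. Stimulated cells thus held a FOS pool that was mostly *Fosl2*, and its sum was small, at 81.2 to 123 TPM compared with 462 to 571 TPM in medium and 981 to 1090 TPM with TRAIL. Of the JUN sum *Junb* was 61.9% ± 2.37 (SD, n = 3) in the medium group, 43.3% ± 1.05 (SD, n = 3) in the stimulated group and 62.6% ± 1.34 (SD, n = 3) with TRAIL, while *Jund* took 27.0%, 44.8% and 23.1%. The JUN sum was 1636 to 1852, 1242 to 1315 and 3342 to 3739 TPM. The ratio of the JUN to the FOS sum was 3.45 ± 0.178 (SD, n = 3) in the medium group, 12.6 ± 3.10 (SD, n = 3) in the stimulated group and 3.41 ± 0.0202 (SD, n = 3) with TRAIL. *Batf* and *Batf3* summed to 39.5 to 53.0, 166 to 189.9 and 58.4 to 74.9 TPM, and *Batf3* was 8.64%, 17.0% and 7.22% of that sum.

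**Figure D3:**
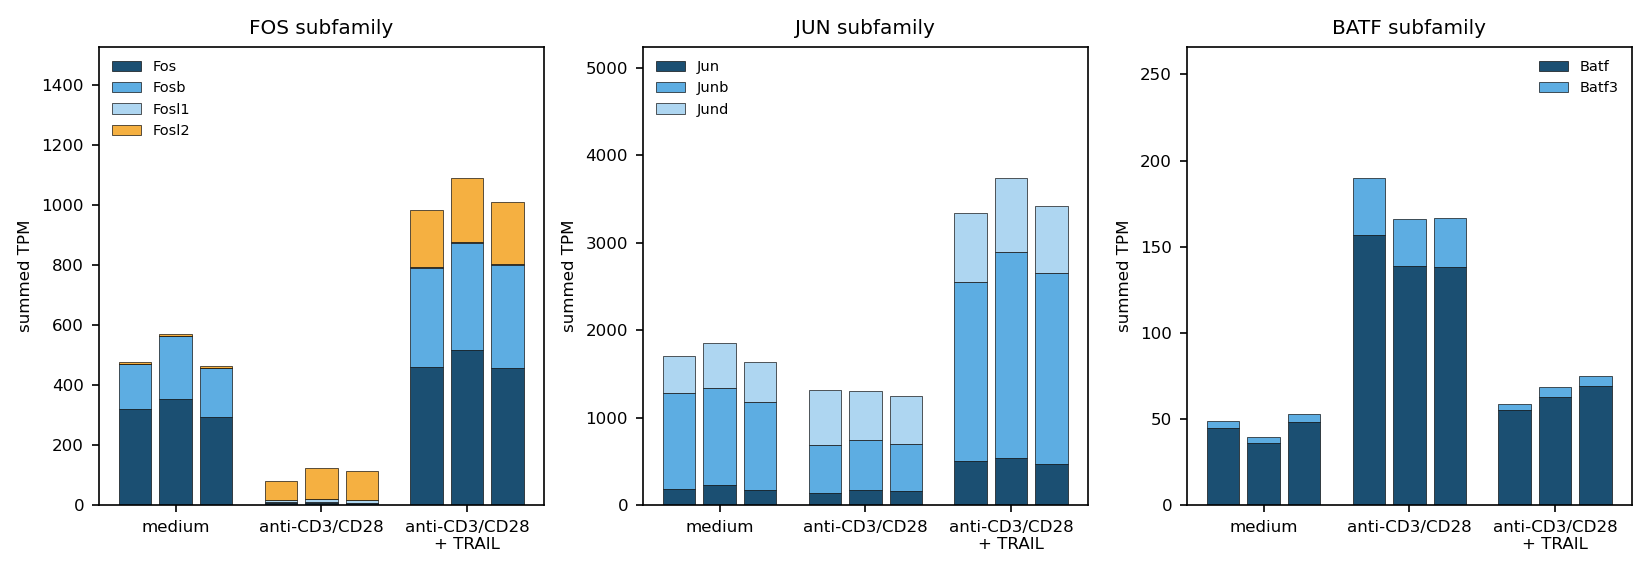
Summed TPM (vertical axis from 0, a scale of its own in each panel) of the FOS, JUN and BATF genes, with 1 stacked bar for each of the 3 libraries of a group in the order of replicate numbers and a colour for each gene. The FOS bars are shortest after Abs alone and are then mostly *Fosl2*, at 81.9% of the sum on average, and the BATF bars are tallest there, at 166 to 189.9 TPM.

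Ordered by mean TPM, *Junb* led the family in medium (1069 TPM) and with TRAIL (2192 TPM), where it ranked 99th and 47th of the 15536 genes tested. In medium *Jund*, *Fos*, *Jun* and *Fosb* followed, of which *Jun* and *Fosb* overlapped, and then *Batf*, *Fosl2*, *Batf3*, *Atf3* and *Fosl1*. After stimulation *Jund* (577 TPM) and *Junb* (557 TPM) overlapped at the top, and next came *Jun* and *Batf*, and *Fosl2* and *Atf3*, which overlapped within each pair. *Batf3* was next, then *Fosl1* and *Fos*, which overlapped, and *Fosb* was last at 1.17 TPM. With TRAIL the order was *Junb*, *Jund*, *Jun*, *Fos*, *Fosb*, *Fosl2*, *Atf3*, *Batf*, *Batf3* and *Fosl1*, and only *Jun* and *Fos* overlapped. *Fosb* moved furthest, from a rank of 808 among all genes in medium to 13573 after stimulation and 379 with TRAIL.

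The rule did not use the structure of the genes. *Jun*, *Junb* and *Jund* have a single exon, whereas the coding transcripts of the others have up to 3 to 5 in GENCODE M21. The pentamer ATTTA, the core of AU-rich elements that mark short-lived mRNAs, had a median of 1.20 copies per kb and a lower quartile of 0 in the 3′ untranslated regions of the 11707 tested genes that have one. Of the 10 members 7 lay above that median, namely *Fos* (4.91 per kb), *Junb* (4.12), *Jun* (3.24), *Atf3* (2.53), *Jund* (1.88), *Fosl2* (1.72) and *Fosl1* (1.57). *Fosb* had 0.466 per kb and *Batf* and *Batf3* had 0.

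*Fos* and *Batf* are neighbours on chromosome 12, with their starts 212779 bases apart, and the gene between them that passed the filter was *Jdp2*, which encodes a basic leucine zipper repressor that pairs with JUN. *Jdp2* measured 6.33 TPM on average in medium, 28.8 TPM after stimulation and 5.57 TPM with TRAIL. It rose by 2.03 with stimulation (limma adjusted p = 2.26e-07) and fell by 2.18 with TRAIL against Abs alone (limma adjusted p = 1.52e-07). *Fos* and its neighbours *Jdp2* and *Batf* were therefore called in opposite directions in both comparisons. *Batf3* and *Atf3* are likewise neighbours on chromosome 1, with starts 120192 bases apart. Both rose with stimulation, and with TRAIL against Abs alone *Batf3* fell while *Atf3* was not called.

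**Figure D4:**
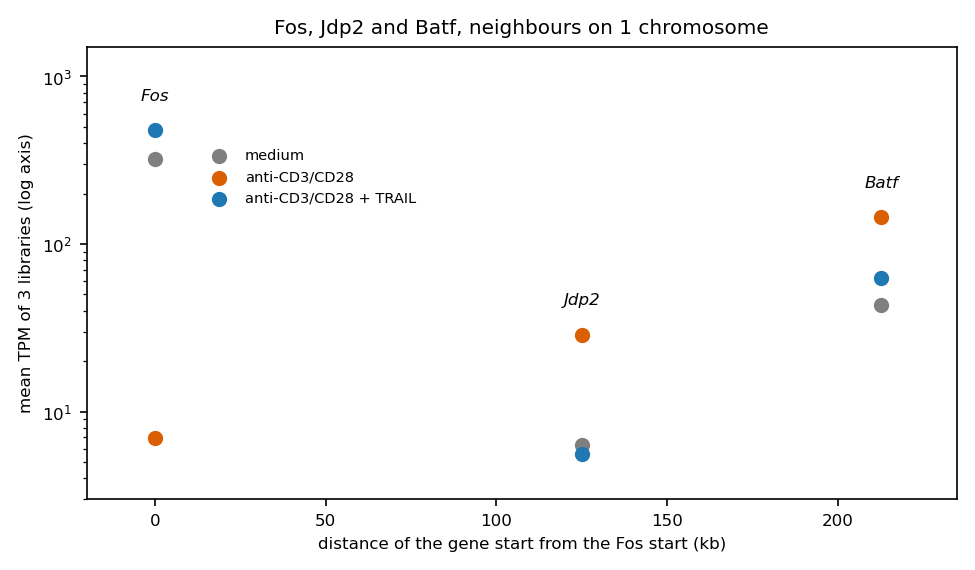
Mean TPM of 3 libraries (vertical log axis) of *Fos*, *Jdp2* and *Batf* against the distance of each gene's start from that of *Fos* in kb (horizontal axis), for medium (grey), anti-CD3/CD28 (orange) and anti-CD3/CD28 with TRAIL (blue). For *Fos* the orange point is lowest (6.97 TPM), and for *Jdp2* (28.8 TPM) and *Batf* (145 TPM) it is highest.

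Further basic leucine zipper genes related to AP-1 were mixed. Of 8 such genes (*Jdp2* among them), 4 were called higher and 1 lower after stimulation, 3 higher and 3 lower with TRAIL against Abs alone, and 2 higher and 0 lower with TRAIL against medium. *Maff*, a small MAF protein, had the largest rise with TRAIL against Abs alone, from 14.9 to 102 TPM (1.96 TPM in medium), a log2 fold change of 2.68 (limma adjusted p = 6.75e-08). *Mafk* (44.9 to 98.3 TPM) and *Maf* (12.6 to 30.9 TPM) rose as well. *Jdp2*, *Batf2* (4.94 to 0.584 TPM) and *Mafg* (45.9 to 16.8 TPM) fell.

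Among the kinases above AP-1, 14 genes of the ERK, JNK and p38 cascades, 11 were not called in either of the comparisons with stimulated cells. With TRAIL against Abs alone 2 rose and 1 fell, and with TRAIL against medium 0 were called. *Map2k6* (log2 fold change 2.32) had the largest rise and *Map2k3* (-1.50) the largest fall with TRAIL against Abs alone, both of which encode activators of p38. Of 10 factors known to bind the *Fos* and *Jun* promoters, 2 were called higher and 0 lower in that comparison. *Mef2c*, which is also expressed in B cells and myeloid cells, rose most, from 8.84 to 66.6 TPM (120.5 TPM in medium), and *Atf1* had the lowest value (-0.58, limma adjusted p = 0.000545, not called). *Mef2d* rose from 95.2 to 217 TPM. *Srf*, which encodes serum response factor, was not called, with means of 95.9 TPM in medium, 74.3 TPM after stimulation and 83.4 TPM with TRAIL. For stimulated cells against medium 1 of the 10 factors was called higher and 3 lower. The 1 called higher was *Crem*, with 23.9 TPM in medium, 245 TPM after stimulation and 355 TPM with TRAIL. Of 6 genes whose products act on the stability of JUN proteins, 1 rose with TRAIL against Abs alone, the deubiquitinase gene *Usp28* (1.67), and 0 fell, the lowest value being that of *Ndfip1* (-0.83, not called).

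The partners that bind DNA beside AP-1 were examined in 5 genes. In the order medium, stimulated, TRAIL-treated, the means were 57.2, 734 and 183 TPM for *Irf4* and 138, 358 and 86.5 TPM for *Irf8*. With TRAIL against Abs alone they fell by 1.98 (limma adjusted p = 6.53e-07) and 2.03 (limma adjusted p = 1.26e-07). *Nfatc3* rose from 65.9 to 134 TPM in that comparison, and *Nfatc1* and *Nfatc2* were not called in any of the 3 comparisons. Of 14 T cell genes known as targets of AP-1, 11 were called higher and 0 lower after stimulation, and 1 was called higher and 9 lower with TRAIL against Abs alone. The largest fall was in *Il21*, which encodes a helper cytokine (346 to 1.01 TPM, 1.53 TPM in medium), and *Il2ra*, the IL-2 receptor α chain, fell from 868 to 23.2 TPM (24.0 TPM in medium). *Fasl* was the one that rose, from 10.4 to 33.6 TPM (12.7 TPM in medium). *Cd69*, an early activation marker, was at 448, 380 and 733 TPM, a difference of 0.93 with TRAIL against Abs alone (limma adjusted p = 0.000151), under the fold limit. *Il10* (2.51, 19.4 and 16.8 TPM) and *Tnf* (20.2, 38.8 and 43.3 TPM) were not called in that comparison.

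Other immediate early genes were set beside the members. Of 16 tested, *Maff* counted here too, 11 were called higher and 1 lower with TRAIL against Abs alone, and 11 were called higher and 0 lower with TRAIL against medium. *Dusp1*, which encodes a phosphatase of the MAP kinases, had the largest rise against Abs alone (means of 180.0, 18.0 and 367 TPM in the same order of groups, log2 fold change 4.27, limma adjusted p = 1.04e-09). *Btg2* (155, 37.0 and 440.4 TPM), *Zfp36* (378, 86.3 and 485 TPM) and *Ier2* (276, 124.7 and 394 TPM) were also lowest after Abs alone. *Myc* was the one that fell, from 654 to 196 TPM (142 TPM in medium). For stimulated cells against medium 6 of the 16 were called higher and 5 lower. Among the 6 were *Nr4a3* (7.58, 155 and 217 TPM) and *Egr2* (17.8, 85.6 and 141 TPM), lowest in medium and highest with TRAIL.

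Markers of other cells and some stress genes moved with *Fos* and *Fosb*, and like *Jun* and *Junb* were lowest after Abs alone. The summed B cell, myeloid and erythroid markers were, like *Fos* and *Fosb*, lowest in stimulated libraries. With TRAIL against Abs alone, 7 of 8 B cell, 12 of 12 myeloid and 7 of 7 erythroid markers were called higher, and after stimulation every marker of these 3 lists was called lower than in medium. The largest rises were in *Cr2* of the B cell list (log2 fold change 4.43), *C1qc* of the myeloid list (5.99) and *Hba-a2* of the erythroid list (4.76). The 4 NK genes of the CD8+ T and NK list were called lower after stimulation, and with TRAIL against Abs alone *Ncr1* (1.37) and *Klrb1c* (1.08) were called higher and *Cd8a* (-1.62) lower. Against medium all 6 genes of that list were called lower with TRAIL. In that comparison 7 B cell and 7 erythroid markers were also called lower. The 12 myeloid markers were not called, and at an adjusted p under 0.05 without the fold limit 1 was higher and 4 were lower. *Fos* and *Fosb* were not called either, but both were higher (0.57 and 0.98). They summed to 789 to 872 TPM with TRAIL and 456 to 563 TPM in medium. Among 12 heat shock genes, whose level responds to stress and handling, *Hspa1a* (186, 1.31 and 1056 TPM) and *Hspa1b* (335, 1.93 and 1545 TPM), paralogs that share reads, followed the order of *Fosb*. Of the 12, 6 were called higher and 2 lower with TRAIL against Abs alone, 6 higher and 2 lower after stimulation, and 8 higher and 0 lower with TRAIL against medium, and the largest fall with TRAIL against Abs alone was in *Hspd1* (-1.72). *Bag3*, a co-chaperone gene of the same list and the gene closest in pattern to *Jun*, had 7.46, 4.83 and 28.8 TPM. The part of other cells and of handling in the values of *Fos*, *Fosb*, *Jun*, *Junb* and the other members was not tested.

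**Figure D5:**
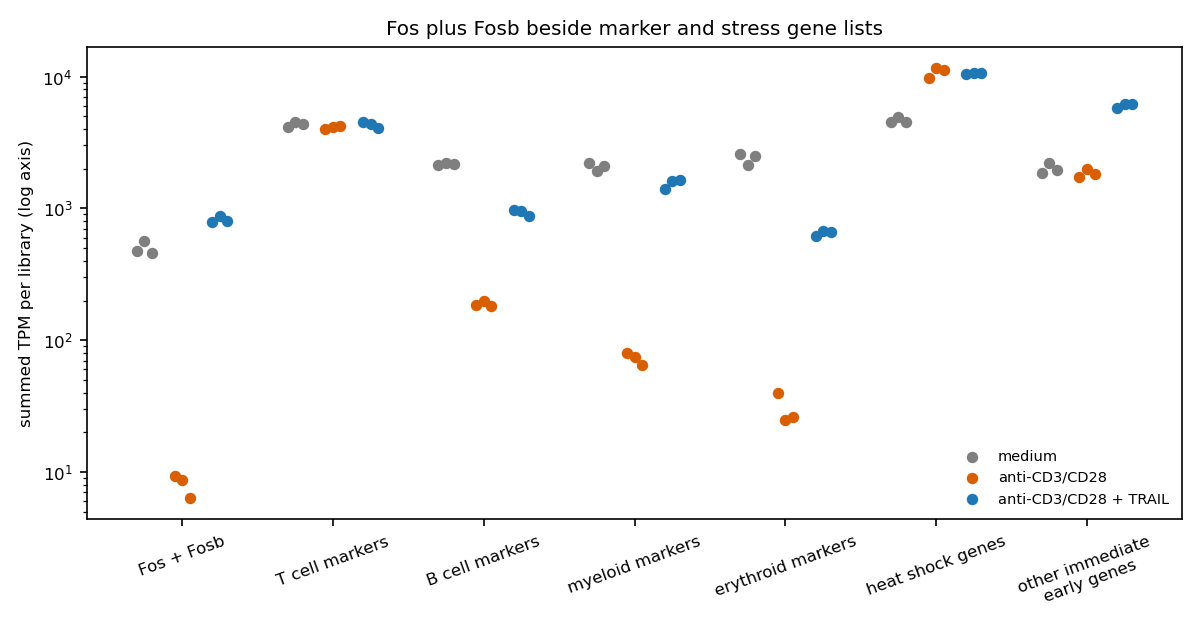
Summed TPM per library (vertical log axis) of *Fos* plus *Fosb*, of marker lists and of stress gene lists (horizontal axis), as points for medium (grey), anti-CD3/CD28 (orange) and anti-CD3/CD28 with TRAIL (blue). The summed T cell markers lie at 3965 to 4523 TPM in all groups, B cell, myeloid and erythroid markers are lowest after Abs alone, and of these sets *Fos* plus *Fosb*, heat shock genes and other immediate early genes are higher with TRAIL than in medium.

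The genes most like each member in pattern were found by Pearson's r of log2(TPM + 1) across the 9 libraries, among 10455 other genes whose mean reached 10 TPM in one or more groups. With 3 groups that lie far apart such r values are high for many genes, and they describe these libraries only. The closest 2 were *Ighv7-3* and *Tmem86a* for *Fos* (both r = 1.00 after rounding), *Bambi-ps1* and *Coq8a* for *Fosb*, *Vegfa* and *Irf4* for *Fosl1*, and *Dusp5* and *Egr2* for *Fosl2*. *Ighv7-3* belongs to the immunoglobulin family, whose reads may be divided arbitrarily. For *Jun* they were *Bag3*, of the heat shock list, and *Tob2*, for *Junb* *Klf11* and *Plk2*, for *Jund* *Nop53* and *Ing2*, for *Batf* *Cox5b* and *Gm6477*, for *Batf3* *Tpi-rs11* and *Psmb6*, and for *Atf3* *Ciart* and *Osgin2*. The r values of these pairs ran from 0.980 to 1.00. Within the family, *Fos* and *Fosb* had r = 0.998, *Fosl2* and *Atf3* 0.970, *Batf* and *Batf3* 0.970 and *Jun* and *Junb* 0.941, whereas *Fos* and *Batf3* had r = -0.973.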

How the data were processed

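RNA-seq was measured in 9 libraries of splenic CD4+ T cells, grouped by the titles in the labels. According to the methods, the authors used Trimmomatic to trim the paired reads and HISAT2 for alignment to GRCm38. The submitters' processing notes list Trimmomatic 0.36, HISAT2 2.1.0, SAMtools 1.2, StringTie 2.1.2 and DESeq2, and name GRCh38, a human build, but 99.3% of the 55141 genes of the table found in GENCODE M21 have its GRCm38 locus, as do 9 of the 10 members. The exception is *Junb*, which shares its chromosome and transcription start but not its other end. The deposited values are TPM per gene, scaled by the authors to the same total in each library. Read totals, and so depth and counting error, are unknown, and each value depends on all other transcripts of its library. The tool behind the TPM values and its annotation are not given in the sources used here.

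The 15536 genes that reached 1 TPM in 3 or more libraries were tested on log2(TPM + 1) by limma 3.58.1 in R 4.3.3, using eBayes with a mean-variance trend. One fit without a replicate block held the 9 libraries. The pseudocount understates the change of low genes. Adjusted p-values are Benjamini-Hochberg over all genes tested. For 3 against 3 libraries the smallest two-sided p of an exact rank test is 0.1. Named were all 10 members, the 2 genes closest in pattern to each, and from each list of related genes those with the largest rise and fall with TRAIL, while in the lists of basic leucine zipper genes, DNA-binding partners, targets and immediate early genes any called gene could be named. *Srf*, *Crem*, *Nfatc1*, *Nfatc2*, *Cd69*, *Il10*, *Tnf*, *Mef2d*, *Hspa1a*, *Adgre1*, *Slc4a1*, *Alas2*, *Cd3e*, *Cd4*, *Cd8b1*, *Klrb1c* and the genes that overlap or neighbour a member were added after their values were seen. The members and lists were chosen with earlier results of these data known. Tables and figures used Python 3.11.15, pandas 2.3.3 and matplotlib 3.10.9.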

Additional observations from a re-analysis of the deposited data

How the results depend on the processing

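Other pseudocounts, filters and scalings were tried, as were fits without the variance trend, on the 6 libraries of a comparison alone, with a replicate block, without the fold limit and without each library in turn. Over 30 differences of members and 480 alternative values, 0 reversed, 462 kept their side of the call, 6 lost the call and 12 gained it. A member's fold change is the same under the filters, without the variance trend, on 6 libraries, with the replicate block and without the fold limit. Those values could not reverse. Without the fold limit a member could only keep or gain a call. The members called for stimulated cells against medium (7), with TRAIL against Abs alone (8) and for TRAIL-treated cells against medium (5) became 7, 8 and 4 to 6 when a library was left out. Without the fold limit 9 members passed for TRAIL-treated cells against medium, all 9 higher. For stimulated cells against medium 6 were then higher and 4 lower. Over all genes the counts of 4959, 4800 and 718 called became 10678, 10420 and 5063 without the fold limit, 2946, 2883 and 332 with a pseudocount of 5 TPM, and 1167 in the last comparison with a pseudocount of 0.1 TPM. Dropping the fold limit admits more genes by its construction, and the cause of the pseudocount's effect was not tested. Leaving out a library gave 4558 to 5018, 4461 to 4832 and 624 to 791 genes.

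Scaling moved the median of all genes. Median-of-ratios scaling shifted the comparison of TRAIL-treated cells with medium by 0.17 and quantile normalization by 0.14, and quantile normalization shifted stimulated cells against medium by 0.19, all on the log2 scale. The share of called genes that were higher was 38.8% for stimulated cells against medium and 52.1% under quantile normalization. For TRAIL-treated cells against medium it was 53.9%, and 74.2% and 70.6% under the 2 scalings. No member changed direction under either scaling. Whether replicate numbers pair the libraries is not given in the sources used here, and 3 libraries a group cannot settle it. The correlation of deviations from the group means was -0.306 to 0.295 for 9 pairs with the same number, 3 of them over 0.1. For 18 pairs with different numbers it was -0.379 to 0.289, 7 of them over 0.1, and 4 of 9 libraries correlated best with their own number. With a replicate block, which leaves the fold changes as they are, the members called were again 7, 8 and 5. Depth is unknown, so low values such as those of *Fosl1* in medium and *Fosb* after stimulation carry an unknown counting error.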
